A study of Mus musculus with 6 samples.

Results

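Matrix metalloproteases (MMPs), ADAMTS proteases and their tissue inhibitors, the TIMPs, were followed in a mouse fibroblastic reticular cell (FRC) line held in medium that tumour cells had conditioned. The members were all gene symbols of the forms Mmp, Adamts and Timp followed by their number in the count table, 46 of 55367 symbols, of which 23 were MMPs, 19 ADAMTS genes and 4 TIMPs. FRCs were cultured for 96 h in medium conditioned for 24 h by 4T1 cells, by 67NR cells or, as the control, by FRCs themselves, each with 2% FBS and 1% P/S added and replaced every 48 h. Each medium had 2 libraries of poly(A) RNA, 6 in all, and the 4T1 and 67NR groups were both set against the same control libraries. 4T1 and 67NR are mammary carcinoma lines from the same mouse tumour, of which 4T1 spreads to distant organs and 67NR does not. Medium that no cell had conditioned was not analysed here, and whether a group's libraries came from separate cultures is not given in the labels, so the p-values measure the spread between these libraries, which may be technical. The cells are 1 established line, and in bulk RNA of this kind fewer cells of a type and less RNA per cell cannot be told apart.

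FRCs build and ensheath the collagen fibre network of lymph nodes, and the enzymes described here cut and trim such fibres. MMPs are zinc proteases made as inactive precursors, some secreted and some anchored in the membrane, which cleave collagens, proteoglycans and other proteases after their propeptide has been removed. ADAMTS proteases are secreted enzymes that hold thrombospondin repeats, among them the proteoglycanases, which cut aggrecan and versican, and the procollagen N-proteinases, which trim the amino end of new collagen. TIMPs block the active site of these enzymes: TIMP-1 is a weak inhibitor of the membrane-anchored MMPs, TIMP-2 also serves in the complex through which MMP14 activates MMP2, and TIMP-3 binds to the matrix and reaches ADAMTS and ADAM proteases as well.

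Library totals ran between 13.58 and 21.8 M counts (M, 1e6 counts), and 1 count in a library was worth 0.0463 to 0.0743 counts per M (CPM). Log2 CPM correlated across genes at 0.9921 or above between libraries of the same medium and at 0.9795 or below between media. Of 12 FRC and fibroblast markers, 8 had a count, and Thy1, Ccl19, Ccl21a and Cxcl13 had none in any library. Their sum was 7897 and 8391 CPM in 4T1 medium, 16618 and 15805 in 67NR medium and 14968 and 14379.7 in control medium. Of the 8, 3 were higher and 4 lower in 4T1 medium against control, and 2 were called each way in 67NR medium against control. Col1a1, the type I collagen gene, fell by 1.00 on the log2 scale in 4T1 medium (edgeR adjusted p = 1.02e-07), while Pdgfra, a platelet-derived growth factor receptor gene, rose (log2 1.92, edgeR adjusted p = 1.28e-08). Pdpn, the podoplanin gene that defines FRCs, averaged 105 ± 6.0 CPM in 4T1 medium, 103 ± 8.76 in 67NR medium and 124 ± 7.67 in control medium (SD, n = 2 each). It was lower than in control in both 4T1 and 67NR medium (log2 -0.24 and -0.27, edgeR adjusted p = 0.0304 and 0.0226). Of 9 mammary epithelial markers 6 had a count, and Epcam, Cldn4 and Esrp1 had none. Their sum was 1.58 to 2.23 CPM in 4T1 medium, 5.74 to 6.02 in 67NR medium and 7.58 to 8.83 in control medium. Of 8 endothelial markers, 6 had a count, and Prox1 and Cldn5 had none. That sum was 34.2 to 35.7 CPM in 4T1 medium, 23.6 to 26.6 in 67NR medium and 14 to 16.1 in control medium. Of the 4 endothelial markers tested, however, Emcn alone was higher in 4T1 medium than in control (log2 1.49, edgeR adjusted p = 1.10e-07) and 2 were lower, with a median log2 fold change of -1.02. The part of these marker levels in the results that follow was not tested.

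The line carried a short list of abundant members. Divided by the length of their merged exons, which is what allows levels of different genes to be compared, Timp1 led in 4T1 medium with 883 CPM per kb, followed by Adamts1 with 638, Timp2 with 312, Mmp2 with 221, Mmp14 with 142 and Timp3 with 118 CPM per kb. In 67NR medium the order was Adamts1 with 757, Timp2 with 436, Mmp2 with 335, Mmp14 with 219.9, Timp3 with 150.0 and Timp1 with 127 CPM per kb. In control medium it was Adamts1 with 676, Timp2 with 363, Timp3 with 212, Mmp2 with 208, Timp1 with 168 and Mmp14 with 127 CPM per kb. Libraries of neighbouring genes in these 3 orders overlapped in 1 place, between Timp3, at 209 to 215 CPM per kb, and Mmp2, at 203 to 214, in control medium. Adamts2, Mmp23 and Adamts5 came next in every medium, at 35 to 98.1 CPM per kb, and the libraries of Mmp23 and Adamts5 overlapped in 4T1 medium. These orders depend on the length used. The merged exons of Mmp14 measure 5.96 kb and its longest coding transcript 3.238 kb, against 3.371 and 3.078 kb for Mmp2. Divided by the coding transcript, the mean of Mmp14 was above that of Mmp2 in every medium.

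**Figure D1:**
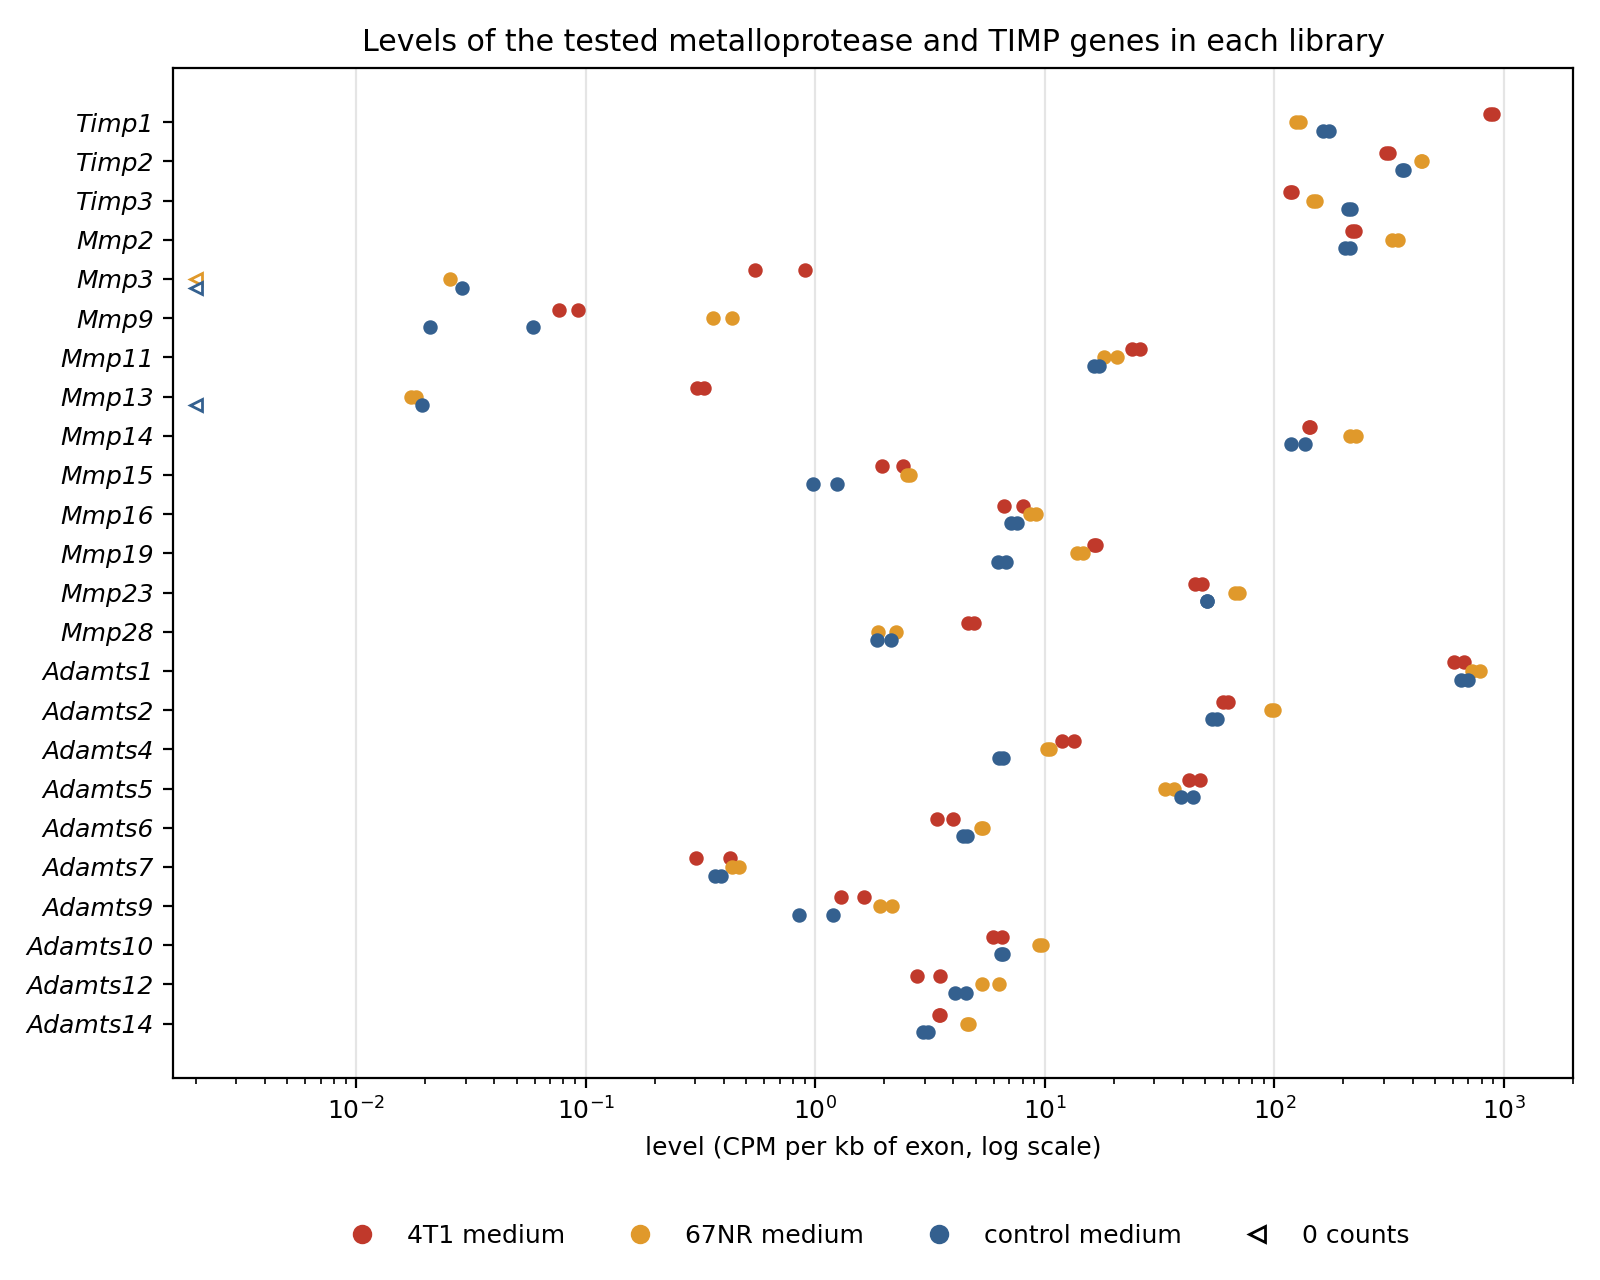
Level of each tested member in CPM per kb of exon, on a log axis, with 1 point per library coloured by medium and open triangles at the left edge for 0 counts. Timp1 leads in the 4T1 libraries and Adamts1 in the 67NR and control libraries, while Mmp3, Mmp9, Mmp13 and Adamts7 stay below 1 CPM per kb.

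Enough reads for a test were present for 24 of the 46 members, 11 MMPs, 10 ADAMTS genes and 3 TIMPs. In 4T1 medium against control 9 of them were higher and 4 lower at an adjusted p under 0.05 (edgeR quasi-likelihood test over 15055 genes), where 39.1% of all tested genes were called in either direction, 19.9% higher and 19.2% lower. All 6 MMPs called in that comparison were higher, and 2 ADAMTS genes were called each way. At least 2-fold higher were 6 members and at least 2-fold lower none, against 5.41% and 4.12% of all genes. In 67NR medium against control, 14 members were higher and 3 lower, against a background of 27.6% called, 13% higher and 14.6% lower. The 7 MMPs called there were higher, as were 6 of the 7 ADAMTS genes called. The count at 2-fold or more was 4 higher and none lower, against 2.44% and 2.38% of all genes. Between the tumour media, 8 members were higher in 4T1 medium and 14 lower, against 43.4% of all genes called, 23.5% higher and 19.9% lower. The 7 ADAMTS genes lower in 4T1 than in 67NR medium made up most of the 9 called, and the 10 MMPs called divided evenly. At 2-fold or more, 4 members were higher and 1 lower, against 5.51% and 4.98% of all genes. These counts include Mmp3, Mmp13 and Mmp9, which passed the filter on low counts only through the medium where they are high and so had to differ, and for that reason the counts over tested members are given as a description. The median log2 fold change of tested members was 0.16, 0.43 and -0.32 in the 3 comparisons in this order, against 0.011, 0.0032 and 0.025 over all tested genes. Without either control library the members lower in 4T1 medium than in control numbered 2, and without the first 67NR library those higher in 4T1 than in 67NR medium numbered 5.

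**Figure D2:**
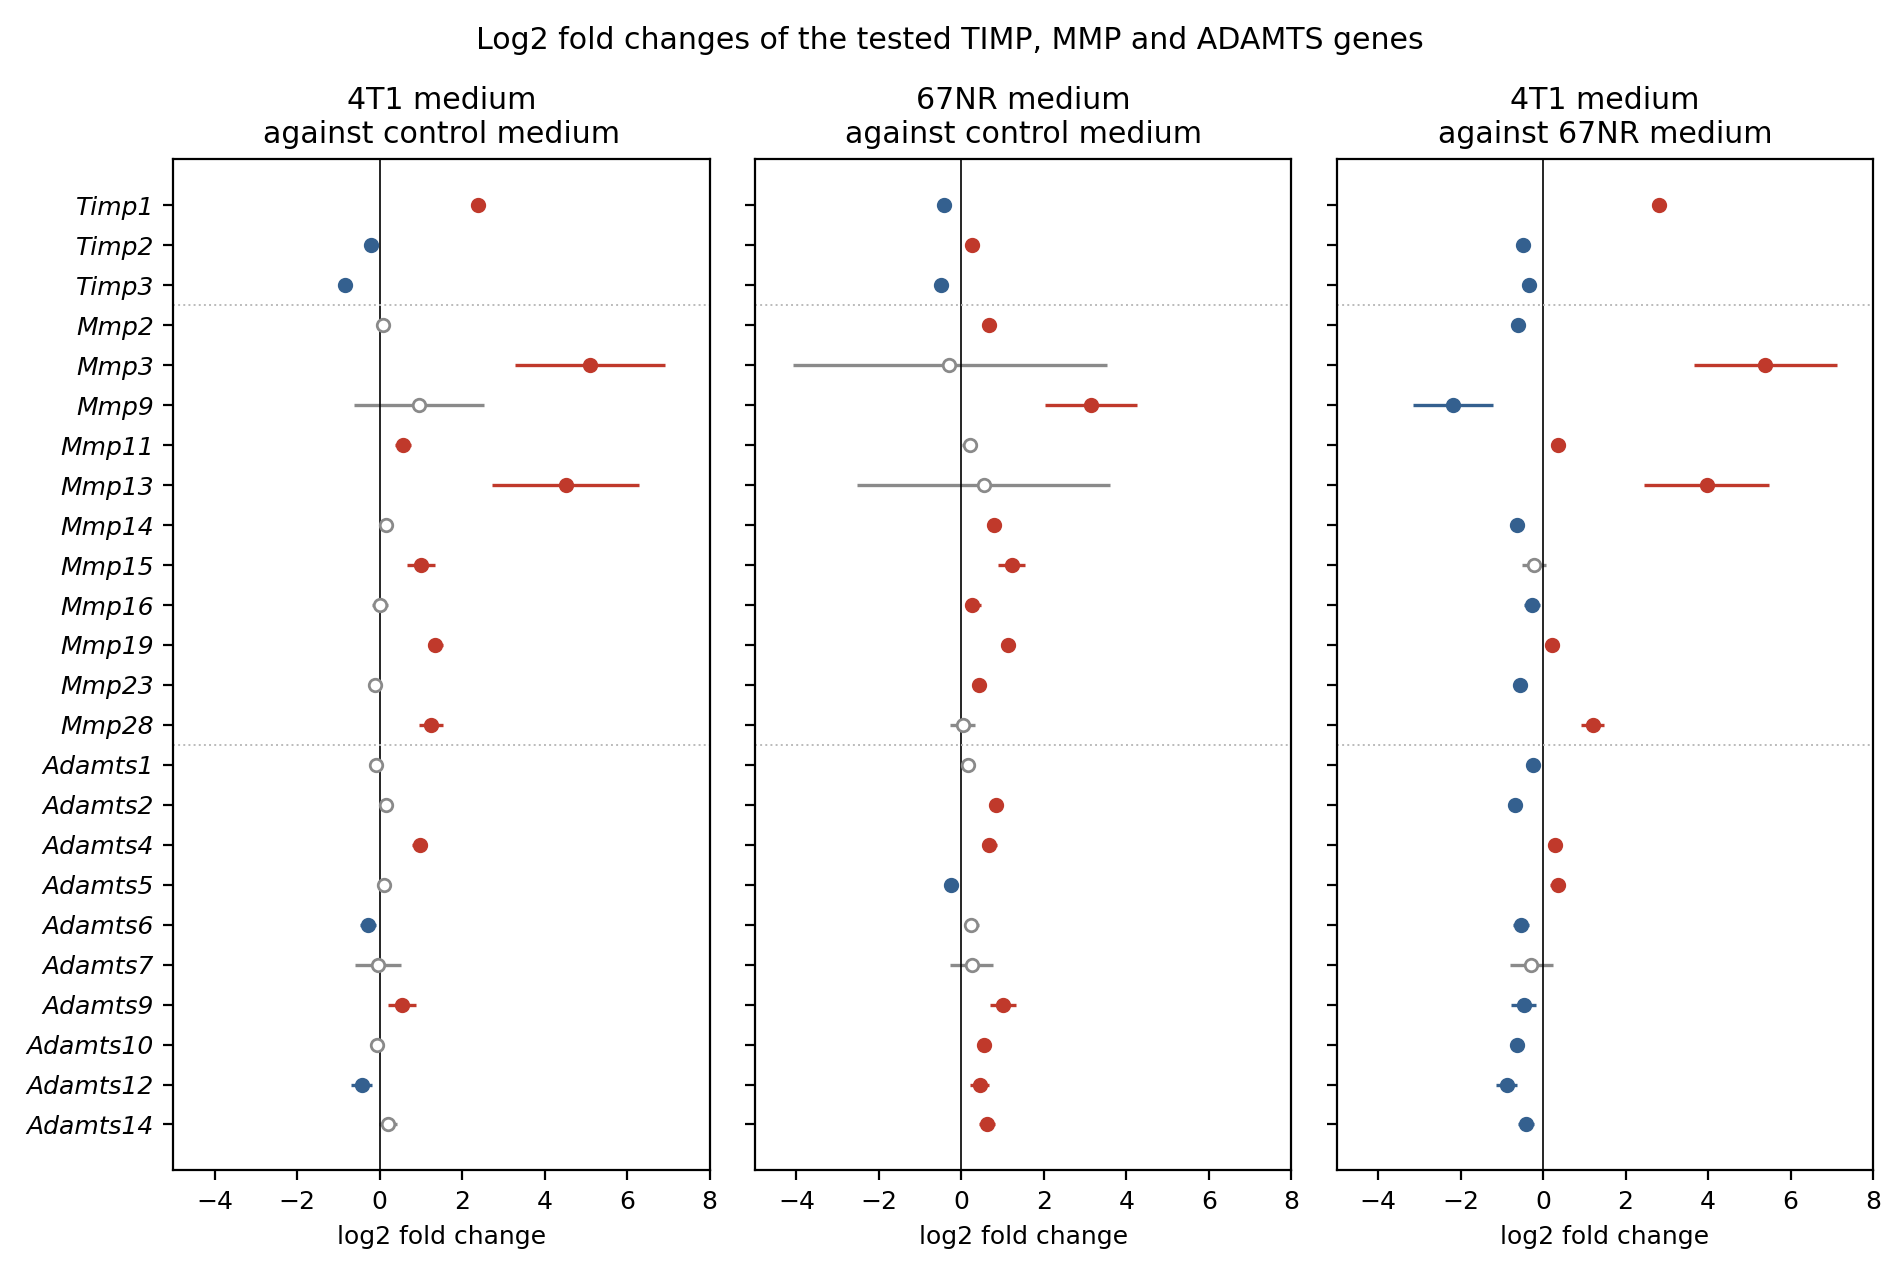
Log2 fold change (points) of the 24 tested members with its 95% interval (lines) in the 3 comparisons, 1 panel each, red where higher and blue where lower at an adjusted p under 0.05, and open grey elsewhere. Timp1 lies at 2.39 in 4T1 medium against control and at -0.41 in 67NR medium against control, and the intervals of Mmp3, Mmp9 and Mmp13, which the filter let in through 1 medium only, are the widest.

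The TIMP transcripts changed in different directions. Timp1 (chrX:20870166-20874735, GRCm38) stood at 769.6 and 799 CPM in 4T1 medium, at 115 and 110.2 in 67NR medium and at 154 and 145 in control medium. The groups did not overlap, with both 4T1 libraries far above the rest and both 67NR libraries below the controls. The gene was 5.25-fold higher in 4T1 medium than in control medium (log2 2.39 ± 0.067 SE, edgeR adjusted p = 2.52e-11) and fell by 0.41 on the log2 scale in 67NR medium (SE 0.066, edgeR adjusted p = 0.00054). Between the tumour media it was 6.96-fold higher in 4T1 medium (edgeR adjusted p = 7.29e-12). Timp1 lies within the span of Syn1, a neuronal synapsin gene, and shares no exon bases with it. The 250 bases before its RefSeq start (chrX:20869916-20870165, GRCm38.p6, plus strand) are shown because this gene had the highest level per kb of exon of all members in 4T1 medium. They hold no match to any of the motifs searched, which were the AP-1 letters TGANTCA, the GAS letters TTCNNNGAA bound by STAT factors, and the NF-kB motif, all on both strands:
Timp1 promoter: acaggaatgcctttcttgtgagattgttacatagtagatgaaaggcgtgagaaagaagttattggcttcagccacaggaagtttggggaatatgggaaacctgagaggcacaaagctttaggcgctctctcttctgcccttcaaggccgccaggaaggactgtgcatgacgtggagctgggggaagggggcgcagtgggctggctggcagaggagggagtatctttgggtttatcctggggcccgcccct
Among all 32851 promoters of the same length, 6.75% held the AP-1 letters, 7.02% the GAS letters and 3.9% the NF-kB motif.

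Timp3, the matrix-bound inhibitor (chr10:86300372-86349506), stood at 950.3 and 973 CPM in 4T1 medium, at 1209 and 1234 in 67NR medium and at 1703 and 1751 in control medium. The 3 media did not overlap, with 4T1 lowest and control highest. It fell by 0.84 in 4T1 medium and by 0.50 in 67NR medium on the log2 scale (SE 0.062 and 0.061, edgeR adjusted p = 2.33e-07 and 5.74e-05), and 4T1 was below 67NR medium by the direct test (log2 -0.35, edgeR adjusted p = 0.000509). Timp3 shares 1733 exon bases with Syn3 on the opposite strand, and Syn3 itself had mean levels of 0.469, 0.52 and 0.921 CPM in 4T1, 67NR and control medium. Timp2 (chr11:118301069-118355740) had 1199 and 1231 CPM in 4T1 medium, 1691 and 1707 in 67NR medium and 1432 and 1399 in control medium. The control libraries lay between those of the tumour media with no overlap. It fell by 0.22 in 4T1 medium (edgeR adjusted p = 0.0123) and was higher by 0.26 in 67NR medium on the log2 scale (edgeR adjusted p = 0.00626), and the tumour media differed by -0.48 (edgeR adjusted p = 3.04e-05). These small changes of Timp2 against control missed the threshold when a single library was left out, with an adjusted p of 0.0658 for 4T1 medium without the first control library and 0.0596 to 0.0821 for 67NR medium without the second control library or either 67NR library. Timp4 had 5 counts in 67NR medium, 1 in control medium and none in 4T1 medium and was not tested.

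**Figure D3:**
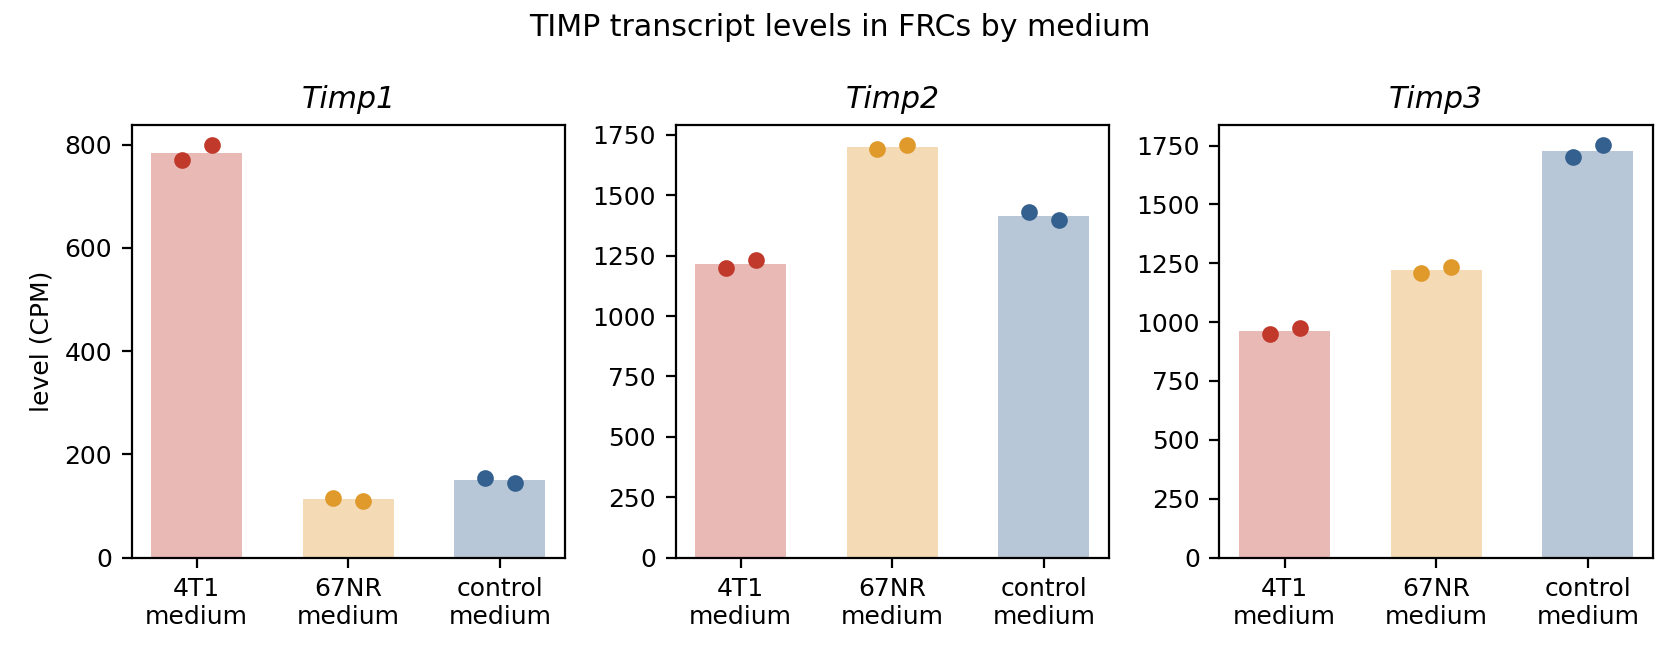
CPM of Timp1, Timp2 and Timp3 in each library, as points, with bars from 0 for the mean of the 2 libraries per medium. Timp1 is at 769.6 to 799 CPM in 4T1 medium and at or below 154 CPM elsewhere, and Timp3 is highest in control medium.

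Mmp2 and Mmp14 belong together: MMP14, membrane-anchored and a collagenase in its own right, activates the gelatinase MMP2 on the cell surface. Mmp14 (chr14:54431612-54445364) stood at 838 and 852 CPM in 4T1 medium, at 1346 and 1275 in 67NR medium and at 808 and 703 in control medium. Mmp2 (chr8:92827291-92853420) stood at 738 and 755 CPM in 4T1 medium, at 1162 and 1094 in 67NR medium and at 721 and 683 in control medium. For both genes the 67NR libraries were above all others, and the 4T1 libraries lay just above the controls without overlap. In 67NR medium against control, Mmp14 was 1.73-fold and Mmp2 1.61-fold higher (log2 0.79 ± 0.074 and 0.68 ± 0.065 SE, edgeR adjusted p = 5.23e-06 and 5.92e-06). In 4T1 medium against control the differences did not pass the threshold, at 0.16 for Mmp14 (95% interval 0.00057 to 0.32, edgeR adjusted p = 0.105) and 0.088 for Mmp2 (-0.052 to 0.23, edgeR adjusted p = 0.311). Set directly against each other, 4T1 medium was below 67NR medium by -0.63 for Mmp14 and -0.60 for Mmp2 (edgeR adjusted p = 1.47e-05 and 7.48e-06).

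The other membrane-anchored members varied in the same comparisons. Mmp15 (chr8:95352268-95375080) had 10.5 and 13 CPM in 4T1 medium, 13.6 and 14 in 67NR medium and 5.3 and 6.69 in control medium. Both tumour media were above the controls, by log2 1.00 in 4T1 medium (edgeR adjusted p = 0.000228) and 1.22 in 67NR medium (edgeR adjusted p = 5.74e-05), and they did not differ detectably from each other (log2 -0.22, 95% interval -0.51 to 0.072). Mmp23 averaged 109 CPM in 4T1 medium, 160.2 in 67NR medium and 119 in control medium, and was higher in 67NR medium than in control (log2 0.43, edgeR adjusted p = 0.000363) and lower in 4T1 than in 67NR medium (log2 -0.55, edgeR adjusted p = 1.91e-05). Mmp16 averaged 63.7, 76.9 and 63.7 CPM in 4T1, 67NR and control medium. Its excess in 67NR medium over control (log2 0.27, edgeR adjusted p = 0.0378) was lost when any 1 of the 4 libraries compared was left out, at adjusted p values of 0.101 to 0.234, and by DESeq2 with all 6 libraries (adjusted p = 0.0577).

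Mmp9, the other gelatinase (chr2:164940780-164955850), was scarce. It had 4 and 6 counts in 4T1 medium, 33 and 26 in 67NR medium and 4 and 1 in control medium, which is 0.27 and 0.327, 1.53 and 1.27, and 0.208 and 0.0743 CPM in the same order. Both 67NR libraries stood apart from the other 4. The level in 67NR medium was 9.16 times that in control (95% exact interval 3.71 to 29.3, counting error only), and the 4T1 level was 0.215 times the 67NR level (0.0982 to 0.425). Since the gene passed the filter only through its 67NR libraries, no p is given for these differences. The fitted log2 fold change against control was 3.14 with all libraries and 4.11 without the first control library. Mmp9 is an abundant product of neutrophils and macrophages, and 6 of 12 leukocyte and macrophage markers had a count. Their sum was 5.07 and 5.39 CPM in 4T1 medium, 12.6 and 11.6 in 67NR medium and 7.06 and 8.47 in control medium, while Adgre1, Cd52, Tyrobp, S100a8, S100a9 and Elane were at 0 and Ptprc, the gene of the leukocyte antigen CD45, had 1 count in all 6 libraries together. The part of that marker sum in the Mmp9 result was not tested.

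Mmp3, the stromelysin that cleaves proteoglycans and activates other MMPs, and Mmp13, the main fibrillar collagenase of mice, were detected mainly in 4T1 medium. Mmp3 had 24 and 18 counts in 4T1 medium, 1 and 0 in 67NR medium and 1 and 0 in control medium, or 1.62 and 0.98, 0.0463 and 0, and 0.0519 and 0 CPM. Mmp13 had 13 and 15 counts in 4T1 medium, 1 and 1 in 67NR medium and 1 and 0 in control medium, or 0.879 and 0.817, 0.0463 and 0.0487, and 0.0519 and 0 CPM. Each 4T1 library was above every other library for both genes, yet neither gene passed 2 CPM. The 4T1 level of Mmp3 was 41.4 times that in control medium (95% exact interval 7.04 to 1676) and that of Mmp13 27.6 times (4.57 to 1129.9), from 1 control count each. Against 67NR medium the ratios were 53.4 (9.07 to 2158) for Mmp3 and 17.8 (4.49 to 154) for Mmp13. Both genes passed the filter only through their 4T1 libraries, so no p is given for these differences. The fitted log2 fold changes against control were 5.10 for Mmp3 and 4.51 for Mmp13. With 1 library left out they ran over 4.45 to 7.50 for Mmp3 and 3.86 to 6.91 for Mmp13, and both highest values came without the first control library, which held the single control count. Against 67NR medium the fitted value of Mmp3 was 5.39, and 7.47 without the first 67NR library.

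Both genes lie in a cluster of 10 MMP genes on chromosome 9 (chr9:7272514-7699585, GRCm38, 427.1 kb). Of these 10 genes, 8 hold the AP-1 letters TGANTCA in the 100 bases before a RefSeq start, against 0 of the 22 other members with a promoter in the table. The members without a promoter there, which were not searched, all lie outside the cluster and include Mmp2, Mmp9, Mmp19, Adamts4 and Adamts5. AP-1 is the Fos and Jun dimer, long known as a regulator of this cluster, and a match is a description of the letters and no evidence of binding. The 100 bases before the start are shown for those 8 genes so that the position of the match, in capitals, can be compared. In gene order along the chromosome the windows are chr9:7272414-7272513, chr9:7347274-7347373, chr9:7388027-7388126, chr9:7445722-7445821, chr9:7464041-7464140, chr9:7502242-7502341, chr9:7628131-7628230 and chr9:7691990-7692089 (GRCm38.p6), on the plus strand except for Mmp1b, and the Mmp12 window belongs to the second of its RefSeq starts:
Mmp13: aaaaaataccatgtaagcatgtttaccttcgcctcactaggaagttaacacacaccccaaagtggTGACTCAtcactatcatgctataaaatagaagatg
Mmp12: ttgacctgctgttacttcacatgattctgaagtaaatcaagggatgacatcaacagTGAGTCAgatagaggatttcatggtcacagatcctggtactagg
Mmp1b: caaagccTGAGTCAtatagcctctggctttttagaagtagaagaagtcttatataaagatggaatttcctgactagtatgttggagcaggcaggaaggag
Mmp3: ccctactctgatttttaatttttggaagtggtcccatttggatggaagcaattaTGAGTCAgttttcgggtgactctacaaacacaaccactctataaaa
Mmp1a: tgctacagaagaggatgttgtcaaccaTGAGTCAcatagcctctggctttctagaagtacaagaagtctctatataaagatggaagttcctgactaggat
Mmp10: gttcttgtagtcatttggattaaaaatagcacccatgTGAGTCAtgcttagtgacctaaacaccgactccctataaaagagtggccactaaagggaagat
Mmp20: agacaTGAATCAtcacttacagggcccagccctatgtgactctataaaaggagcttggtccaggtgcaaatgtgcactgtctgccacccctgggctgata
Mmp7: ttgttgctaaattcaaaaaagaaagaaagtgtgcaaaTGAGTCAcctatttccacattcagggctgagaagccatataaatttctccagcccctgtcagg
The match reads TGAGTCA in 6 of the 8, TGACTCA in Mmp13 and TGAATCA in Mmp20. It begins 35 bases before the start in Mmp13, 44 in Mmp12, 46 in Mmp3, 63 in Mmp10 and Mmp7, 73 in Mmp1a, 93 in Mmp1b and 95 in Mmp20. These distances depend on the start used. In GENCODE the Mmp1b gene starts at chr9:7388047, inside the window shown, which brings the match nearer to it. Mmp7 has a second RefSeq start, further along the gene, with no match in the 250 bases before it. Of the cluster genes that hold these letters, Mmp3 and Mmp13 were tested. Mmp10, a second stromelysin, had 2 and 2 counts in 4T1 medium and none elsewhere, Mmp12, the macrophage elastase, 1 and 1 counts in 4T1 medium and none elsewhere, and Mmp1a, Mmp1b, Mmp7 and Mmp20 had no count in any library. The 2 cluster genes without the letters, Mmp8 and Mmp27, were also too low to test. Mmp27 had 2 and 8 counts in 4T1 medium, 3 and 1 in 67NR medium and 1 and 1 in control medium. Among the other members, the GAS letters were found before Mmp23 and the NF-kB motif before Mmp25.

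Of the remaining secreted MMPs, Mmp19 and Mmp28 rose in 4T1 medium and Mmp19 also in 67NR medium. Mmp19, a broad-acting basement membrane protease (chr10:128790910-128800824), stood at 57.9 and 59.2 CPM in 4T1 medium, at 51.8 and 48.9 in 67NR medium and at 22.2 and 23.9 in control medium. All 4 tumour medium libraries were above both controls, with log2 fold changes of 1.35 in 4T1 medium (SE 0.081, edgeR adjusted p = 3.47e-08) and 1.13 in 67NR medium (SE 0.081, edgeR adjusted p = 5.04e-07). Mmp28, or epilysin (chr11:83440768-83463071), had 17.9 and 19.1 CPM in 4T1 medium, 8.71 and 7.3 in 67NR medium and 8.31 and 7.21 in control medium. The 4T1 libraries stood above the other 4, which overlapped. The gene was higher in 4T1 medium by log2 1.24 against control and 1.21 against 67NR medium (edgeR adjusted p = 7.85e-06 and 5.16e-06), and 67NR medium differed from control by 0.035 (95% interval -0.27 to 0.34). Mmp11, stromelysin 3, a product of stromal fibroblasts in carcinomas, averaged 69.3 CPM in 4T1 medium, 53.8 in 67NR medium and 46.7 in control medium, and rose against control in 4T1 medium (log2 0.57, edgeR adjusted p = 0.00016). Exons of these 3 genes overlap a gene on the other strand: Mmp19 shares 789 bases with Tmem198b, which averaged 22, 23.5 and 20.3 CPM in 4T1, 67NR and control medium, Mmp28 shares 466 bases with 1700020L24Rik, at 3.62, 0.948 and 0.95 CPM, and Mmp11 shares 155 bases with Chchd10. The smaller difference of Mmp19 between 4T1 and 67NR medium (log2 0.22, edgeR adjusted p = 0.03) was lost under several alternatives, at adjusted p values up to 0.238.

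Among the proteoglycanases, Adamts4 and Adamts9 rose in both tumour media while the far more abundant Adamts1 differed little. Adamts1 (chr16:85793827-85803113) stood at 3229 and 3541 CPM in 4T1 medium, at 3863 and 4166 in 67NR medium and at 3458 and 3709 in control medium. Its 4T1 and control libraries overlapped, and the 67NR libraries lay above both. Neither difference against control passed the test, at log2 -0.082 for 4T1 medium (95% interval -0.24 to 0.075) and 0.16 for 67NR medium (0.0065 to 0.32). Adamts1 did pass in 67NR medium with no filter on low counts, with the replicate block and with only the 2 groups compared in the fit. The edgeR adjusted p was 0.0166, 0.0301 and 0.0332 in this order. Between the tumour media it was lower in 4T1 medium (log2 -0.25, edgeR adjusted p = 0.0149), a call lost without the second 67NR library (adjusted p = 0.182). Adamts4, an aggrecanase (chr1:171250421-171260637), had 57 and 64.4 CPM in 4T1 medium, 48.9 and 50.5 in 67NR medium and 31.6 and 30.3 in control medium. The 3 groups did not overlap, and the rises against control were 1.96-fold in 4T1 medium and 1.60-fold in 67NR medium (log2 0.97 and 0.68, edgeR adjusted p = 1.12e-06 and 5.53e-05).

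Adamts9 (chr6:92772699-92943492) had 19.5 and 24.5 CPM in 4T1 medium, 28.9 and 32.6 in 67NR medium and 12.8 and 18.1 in control medium. The libraries of the 3 media did not overlap, with 67NR highest. Its rise was 2.02-fold in 67NR medium (log2 1.02, edgeR adjusted p = 0.000207) and 1.46-fold in 4T1 medium (log2 0.54, edgeR adjusted p = 0.0134), of which the smaller missed the threshold without the second 4T1 library (log2 0.36, adjusted p = 0.105) or the first control library (log2 0.28, adjusted p = 0.226). Adamts9 shares 1381 exon bases with A730049H05Rik on the other strand, which averaged 1.26, 0.451 and 0.115 CPM in 4T1, 67NR and control medium. Adamts5, the main aggrecanase of mouse cartilage (chr16:85856173-85901828), had 456 and 512 CPM in 4T1 medium, 360.3 and 396 in 67NR medium and 422 and 477 in control medium. The 4T1 and control libraries overlapped and both 67NR libraries were lower. It fell by 0.25 on the log2 scale in 67NR medium (edgeR adjusted p = 0.0361), a call lost without either 67NR library or without the second control library (adjusted p = 0.0657 to 0.307). In 4T1 medium the difference from control was log2 0.11 (95% interval -0.069 to 0.28).

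The procollagen N-proteinases were higher in 67NR medium. Adamts2, the main enzyme for type I procollagen (chr11:50602084-50807573), stood at 559.9 and 584 CPM in 4T1 medium, at 930.2 and 902 in 67NR medium and at 528 and 500.3 in control medium. The 67NR libraries were well above the rest, with a 1.78-fold rise over control (log2 0.83 ± 0.064 SE, edgeR adjusted p = 8.85e-07), while 4T1 medium differed from control by log2 0.15 (95% interval 0.016 to 0.29, edgeR adjusted p = 0.073). Adamts14, a related N-proteinase, averaged 18.1 CPM in 4T1 medium, 24 in 67NR medium and 15.7 in control medium, and also rose in 67NR medium (log2 0.61, edgeR adjusted p = 0.000294). The direct test put both below 67NR medium in 4T1 medium, by -0.68 for Adamts2 and -0.41 for Adamts14 (edgeR adjusted p = 1.91e-06 and 0.00246). Adamts3, the other member of this class, had no count.

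Of the remaining ADAMTS genes, Adamts12, which cleaves cartilage oligomeric matrix protein, moved in opposite directions. It had 30.3 and 38.3 CPM in 4T1 medium, 57.9 and 69.1 in 67NR medium and 44.2 and 49.6 in control medium. The controls lay between the tumour media and no groups overlapped. It fell by 0.44 in 4T1 medium and was higher by 0.44 in 67NR medium on the log2 scale (edgeR adjusted p = 0.0106 and 0.0102), and 4T1 was 1.84-fold below 67NR medium (log2 -0.88 ± 0.11 SE, edgeR adjusted p = 3.86e-05). The calls against control were lost without the second control library for 4T1 medium (adjusted p = 0.0929) and without the second 67NR or the first control library for 67NR medium (adjusted p = 0.137 and 0.126), and the value for 4T1 medium was -0.29 without the first 4T1 library. Adamts10, which binds fibrillin microfibrils, averaged 51.5 CPM in 4T1 medium, 79 in 67NR medium and 53.7 in control medium and rose in 67NR medium (log2 0.56, edgeR adjusted p = 0.000101). Adamts6, its close relative, averaged 28.7, 41.5 and 35.1 CPM in 4T1, 67NR and control medium. It fell by 0.28 on the log2 scale in 4T1 medium (edgeR adjusted p = 0.026), a call lost without the first 4T1 library or without either control library (adjusted p = 0.0704 to 0.128), and also by DESeq2 with all 6 libraries (adjusted p = 0.0606). Adamts7, at 2.28 to 2.82 CPM on average, passed the threshold in none of the 3 comparisons.

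Summed per kb of exon, the inhibitor and protease transcripts stood in different proportions in the 3 media. The MMP pool was 465 and 469 CPM per kb in 4T1 medium, 689.7 and 652 in 67NR medium and 434 and 406 in control medium. The ADAMTS pool was 740.4 and 811 CPM per kb in 4T1 medium, 899 and 958 in 67NR medium and 774 and 824 in control medium, with Adamts1 making up 81% to 84.9% of it. The TIMP pool was 1291 and 1336 CPM per kb in 4T1 medium, 712 and 714 in 67NR medium and 749.6 and 737 in control medium. Timp1 supplied 67.1% and 67.4% of the TIMP pool in 4T1 medium, 18.2% and 17.4% in 67NR medium and 23.1% and 22.2% in control medium, and Timp2 was the largest share in the 67NR and control libraries. TIMP over MMP came to 2.78 and 2.85 in 4T1 medium, 1.03 and 1.09 in 67NR medium and 1.73 and 1.82 in control medium. These sums carry no test, and their order depends on the scale, since the Timp1 transcript is short: on CPM not divided by length, TIMP over MMP averaged 1.54 in 4T1 medium, 1.08 in 67NR medium and 1.91 in control medium, so that 4T1 fell below control, while 67NR was lowest on each scale tried.

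**Figure D4:**
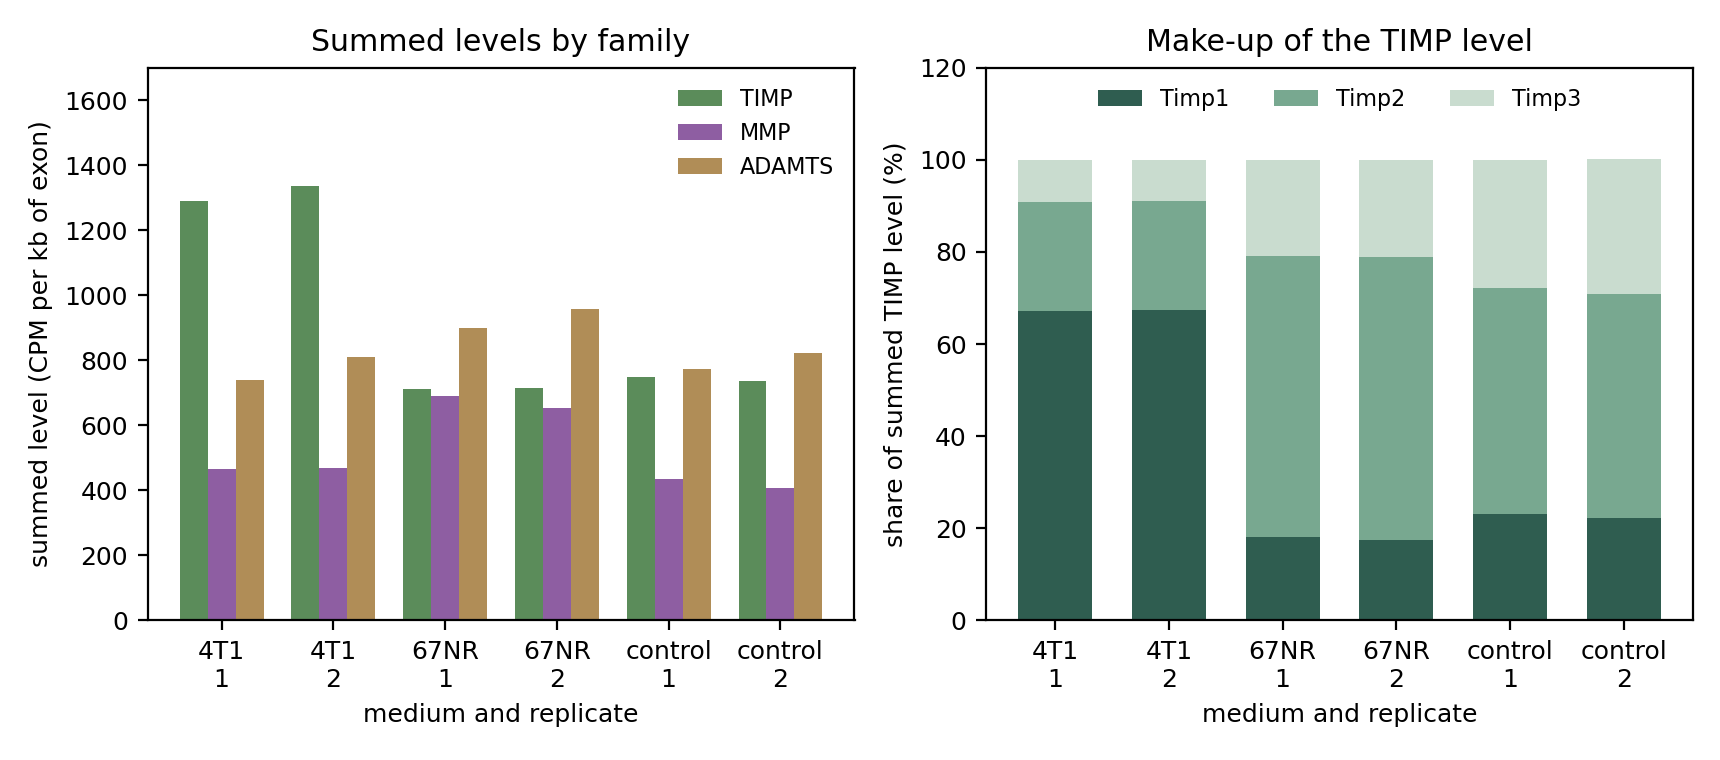
Left, summed CPM per kb of exon of the TIMPs, MMPs and ADAMTS genes as bars for each library, and right, the percent of the summed TIMP level that Timp1, Timp2 and Timp3 made up. The 4T1 libraries have the highest TIMP sum and the 67NR libraries the highest MMP and ADAMTS sums, and Timp1 makes up 67.1% and 67.4% of the TIMP sum in 4T1 medium.

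The 22 members not tested were at or near the detection limit. No count was found in any of the 6 libraries for 8 of them: Adamts3, Adamts8, Adamts18, Adamts20, Mmp1a, Mmp1b, Mmp7 and Mmp20. A further 9 had 1 to 9 counts over all libraries: Adamts13, Adamts15, Adamts17, Adamts19, Mmp8, Mmp10, Mmp12, Mmp21 and Timp4. The other 5, Adamts16, Mmp17, Mmp24, Mmp25 and Mmp27, had 10 to 38. Mmp24, a membrane-anchored MMP first described in brain, had 4 counts in 4T1 medium, 22 in 67NR medium and 12 in control medium, and the 4T1 level was 0.231 times that in 67NR medium (95% exact interval 0.0579 to 0.68, counting error only). The 4T1 level of Mmp27 was 4.93 times that in control medium (1.05 to 46.3). It came from 2 and 8 counts in the 4T1 libraries and 1 and 1 in the controls, so it rests mainly on the second 4T1 library. Both ratios were picked by outcome, as the other such intervals of untested members all included 1.

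Genes that act with the metalloproteases were described from chosen lists, each read against the shares of all tested genes given above. Of 9 tested membrane-anchored ADAM genes, 4 were higher in 4T1 medium than in control and none lower, and in 67NR medium 2 were higher and 1 lower. Adam12, a protease of activated mesenchymal cells, averaged 119.7 ± 16.3 CPM in 4T1 medium, 80.9 ± 0.948 in 67NR medium and 32.5 ± 0.965 in control medium (SD, n = 2 each), and rose against control by log2 1.88 in 4T1 medium (edgeR adjusted p = 5.32e-09). Adam9 rose in 4T1 medium (log2 0.48, edgeR adjusted p = 5.67e-05) and fell by 0.42 on the log2 scale in 67NR medium (edgeR adjusted p = 0.000297). Of 9 tested activators and inducers of metalloproteases, 5 were higher and 1 lower in 4T1 medium and 3 higher and 2 lower in 67NR medium. Plaur, the urokinase receptor, averaged 30 CPM in 4T1 medium, 10.4 in 67NR medium and 15 in control medium, whereas Plau, urokinase itself, averaged 39.4, 71.8 and 60.7 CPM. In 4T1 medium against control Plaur rose (log2 0.98, edgeR adjusted p = 3.56e-05) and Plau fell by 0.62 on the log2 scale (edgeR adjusted p = 0.000262).

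Of 4 tested ADAMTS-like genes, which hold the ADAMTS repeats without the protease, 2 were lower in 4T1 medium, and 1 was called each way in 67NR medium. Adamtsl4 averaged 94.4 CPM in 4T1 medium, 152 in 67NR medium and 124 in control medium. Of 4 tested other inhibitors and clearance receptors 2 were higher and 1 lower in 4T1 medium, and 1 was called each way in 67NR medium. Thbs1, whose thrombospondin protein binds MMP2 and MMP9, averaged 440.2 CPM in 4T1 medium, 4034 in 67NR medium and 5277 in control medium, and fell by 3.58 on the log2 scale in 4T1 medium (edgeR adjusted p = 5.51e-11). Thbs2, its relative, averaged 1247 CPM in 4T1 medium, 1277 in 67NR medium and 548 in control medium and rose in both (log2 1.18 and 1.22, edgeR adjusted p = 3.27e-08 and 9.94e-08). All 4 tested astacin genes and enhancers were called in 4T1 medium against control, 2 each way, and 3 were higher and none lower in 67NR medium. Tll1, a tolloid procollagen C-proteinase, averaged 33.9 CPM in 4T1 medium, 12.4 in 67NR medium and 12.5 in control medium, while Pcolce2, an enhancer of that cleavage, averaged 6.55, 36 and 23.8 CPM. Bmp1, a more abundant procollagen C-proteinase gene, averaged 264, 247 and 195 CPM. It rose against control in both tumour media (log2 0.44 and 0.34, edgeR adjusted p = 0.00013 and 0.00153). Between these media no difference in Bmp1 was detected (log2 0.099, edgeR adjusted p = 0.233).

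Among 17 tested matrix substrates, 5 were higher and 8 lower in 4T1 medium and 9 higher and 4 lower in 67NR medium, each against control, with medians of -0.22 and 0.23. Eln, the elastin gene, averaged 1.33 CPM in 4T1 medium, 33.8 in 67NR medium and 17.8 in control medium, and fell by 3.73 on the log2 scale in 4T1 medium (edgeR adjusted p = 1.14e-08) while it rose in 67NR medium (log2 0.93, edgeR adjusted p = 7.03e-05). Dcn, the collagen-binding proteoglycan decorin, averaged 190.3, 131 and 48.6 CPM in 4T1, 67NR and control medium. Vcan, versican, a substrate of the proteoglycanases and the only tested gene of the aggrecan family, averaged 699 ± 137 CPM in 4T1 medium, 155 ± 13.6 in 67NR medium and 176 ± 1.28 in control medium (SD, n = 2 each), and rose in 4T1 medium by log2 1.99 (edgeR adjusted p = 1.57e-08).

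Of 18 tested AP-1, Ets, NF-kB and related factors named for MMP promoters, 12 were higher and 2 lower in 4T1 medium and 6 higher and 2 lower in 67NR medium against control, with median log2 fold changes of 0.89 and 0.13. Between the tumour media 12 were higher and 2 lower in 4T1 medium. Junb, an AP-1 subunit, averaged 551 ± 10.6 CPM in 4T1 medium, 203 ± 3.16 in 67NR medium and 154 ± 0.128 in control medium (SD, n = 2 each). It rose against control by log2 1.84 in 4T1 medium and 0.40 in 67NR medium (edgeR adjusted p = 1.42e-10 and 0.000347). Cebpb and Runx1 averaged 128 and 44.3 CPM in 4T1 medium, 28.7 and 5.28 in 67NR medium and 25.8 and 7.94 in control medium. Of 13 tested genes from a chosen list of cytokines and receptors linked to MMP induction, 9 were higher and 3 lower in 4T1 medium. In 67NR medium 7 were higher and none lower. Il1b, Osm and Tnf of this list had no count in any library. Il6 averaged 75.4 ± 7.99 CPM in 4T1 medium, 1.33 ± 0.222 in 67NR medium and 1.87 ± 0.0815 in control medium (SD, n = 2 each). Il1r1, the interleukin 1 receptor, rose in 4T1 and 67NR medium (log2 2.00 and 0.68, edgeR adjusted p = 5.42e-09 and 0.000275), and Tgfb3, which encodes transforming growth factor beta 3, averaged 39.7, 237 and 175 CPM in 4T1, 67NR and control medium.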

How the data were processed

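Directional poly(A) libraries from 500 ng of FRC RNA were run on a NextSeq500, per the labels' protocols. The deposited values are unnormalized counts, 1 whole number per symbol and library. The submitters' processing notes name Subread, the mm10 build and DESeq2 1.32.0. Whether the authors' counting used strand is not given in the sources used here, and members sharing exon bases with another gene are uncertain.

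Groups followed the media, with 2 libraries each. From these counts, edgeR 4.0.16 kept 15055 genes (filterByExpr at a minimum count of 10 and total of 15), scaled by TMM. CPM uses the resulting library totals. A quasi-likelihood fit of all 6 libraries (common biological coefficient of variation 5.81%, prior count 0.125) tested 3 comparisons, with Benjamini-Hochberg adjustment over all tested genes and calls at 0.05. SE is the size of the log2 fold change over the root of F, and 95% intervals of fold changes use the t quantile at each gene's degrees of freedom. Alternatives used other scalings and filters, DESeq2 1.42.0, limma-voom (limma 3.58.1), a replicate block and each library left out. Count ratios have 95% exact intervals, which cover counting error only. Exon lengths and positions come from GENCODE M21 (GRCm38, the assembly of mm10), which matched all 46 members and 14741 of the tested genes. Promoter sequences come from RefSeq (GRCm38.p6), where 32 members had an entry. The fit was tested on simulated data.

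Members, lists and tests were chosen with earlier results of these data known. Values of every library are given for members with an absolute log2 fold change of at least 1 and a mean of at least 1 CPM in any comparison that passed, and for 12 members regardless of value. Adamts2 and Adamts12 were added after their values were seen. From each list up to 3 genes were eligible by size in 4T1 medium against control at 10 CPM or more.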

Additional observations from a re-analysis of the deposited data

Results flagged for a closer look

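For 3 members, the effects of 4T1 and 67NR medium against the shared control libraries passed the threshold in opposite directions, and the direct test between the tumour media also passed. Timp1 was higher in 4T1 medium (log2 2.39) and lower in 67NR medium (log2 -0.41), and differed between the tumour media by 2.80 (edgeR adjusted p = 7.29e-12). Timp2 was lower in 4T1 medium (log2 -0.22) and higher in 67NR medium (log2 0.26), and differed between them by -0.48 (edgeR adjusted p = 3.04e-05). Adamts12 was lower in 4T1 medium (log2 -0.44) and higher in 67NR medium (log2 0.44), and differed between them by -0.88 (edgeR adjusted p = 3.86e-05). The calls of Timp2 and Adamts12 against control were lost when certain single libraries were left out: for Timp2 the first control library (adjusted p = 0.0658) in 4T1 medium and either 67NR or the second control library (0.0596 to 0.0821) in 67NR medium, and for Adamts12 the second control library (0.0929) in 4T1 medium and the second 67NR or the first control library (0.137 and 0.126) in 67NR medium.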

How the results depend on the processing

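Over 72 tests of members, those of Mmp3, Mmp9 and Mmp13 included, 52 passed the threshold. Of these calls, 37 were kept under every alternative that could be run and 15 were lost under at least 1. All calls of Mmp3, Mmp9 and Mmp13 are among those kept. These 3 genes passed the filter only through the medium where they are high, so the number kept is a description. With 1 library left out, the members lower in 4T1 medium than in control numbered at the fewest 2, and those higher in 4T1 than in 67NR medium at the fewest 5. Such a fit leaves a medium with 1 library, which is assumed to vary like the others. With only the 2 groups compared in the fit, 5325 genes were called in 67NR medium against control, against 4150 with all 6 libraries. Members higher there numbered 17, against 14. In 4T1 medium against control 5176 genes were called, against 5888. The fit of all 6 libraries shares its estimate of spread over the media. Spread between a medium's libraries relative to counting noise (chi-square per gene) was 8.21 in 4T1, 4.26 in 67NR and 4.19 in control medium. The part of this difference in the calls was not tested. Some differences that were not called passed under an alternative. Among them were Adamts1, Adamts6 and Mmp11 in 67NR medium and Adamts2 in 4T1 medium, each against control. The sign turned only for differences that were not called. Mmp16 in 4T1 medium against control was -0.0077 with DESeq2 size factors, -0.0061 with no filter, -0.0035 with the replicate block, -0.0097 by DESeq2, and -0.15 to 0.13 with 1 library left out. Adamts7 in the same comparison ran over -0.34 to 0.15 with 1 library left out. In 67NR medium against control the values with 1 library left out ran over -0.12 to 2.95 for Mmp13, -0.098 to 0.16 for Mmp28 and -2.38 to 2.13 for Mmp3.

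The ratio of TIMP to MMP in 4T1, 67NR and control medium was 1.54, 1.08 and 1.91 with no length correction, and 2.19, 0.897 and 1.56 with the length of the longest coding transcript, an alternative chosen after seeing the data. TIMP over MMP and ADAMTS was 1.06, 0.446 and 0.61 per kb of exon, 0.45, 0.361 and 0.509 with no length correction, and 0.942, 0.427 and 0.623 with the coding transcript.

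Taken over all tested genes, libraries with the same replicate number did not deviate together (correlations of 0.00508, -0.0406 and 0.0685 in the 3 comparisons). Such correlations cannot exclude pairing for some of the genes, so whether the numbers pair the libraries was not settled. With the replicate block 9 members were higher and 4 lower in 4T1 medium against control, 16 and 3 in 67NR medium against control, and 8 and 14 between the tumour media; Adamts1 and Adamts6 were the members gained in 67NR medium (edgeR adjusted p = 0.0301 and 0.0439). With 2 libraries per medium and 1 count worth 0.0463 to 0.0743 CPM, members below the filter have only count ratios with wide intervals.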
